A study of Homo sapiens with 10 samples.

Results

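Protein-coding genes with 3 or more terminal poly(A) peaks were described from the pooled peak list of a poly(A) 3′-seq experiment in IMR-32 cells, a human neuroblastoma line. A terminal peak was one whose summit lay from 200 bp upstream to 600 bp downstream of any transcript end that GENCODE release 44 annotates for the gene. Genes were chosen on the number of such peaks alone, and the regions described are the peaks of these genes that lay in the windows of 1 gene only, called sites below. Of 177793 peaks on chromosomes 1 to 22 and X, 28625 were terminal peaks of protein-coding genes and 26986 of these lay in the windows of 1 gene. Of 13740 genes with a terminal peak, 4256 (31.0%) had 3 or more, and together they held 15930 sites. A further 1258 peaks of these genes lay in windows shared with another gene and were left out, so that 3755 genes kept 3 or more sites, 465 kept 1 or 2, and 36 kept none.

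The 3′ end of a mature mRNA is made by endonucleolytic cleavage followed by addition of a poly(A) tail. The cleavage machinery recognises a poly(A) signal, most often the hexamer AATAAA or its common variant ATTAAA, a short distance upstream of the cut, with TGTA elements further upstream and T- and G-rich sequence downstream. A gene with several such sites can yield mRNAs that share the coding sequence but differ in 3′ UTR length (tandem sites in 1 terminal exon) or mRNAs that end in different terminal exons and may encode different proteins. Long 3′ UTRs from distal sites are a known property of neuronal cells.

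The cells carried lentiviral short hairpins followed by puromycin selection. Hairpins against CDK12 (sh22 and sh98) and against CDK13 (sh701 and sh704), both kinases of the RNA polymerase II C-terminal domain, gave 2 libraries each, and a hairpin against GFP, the control, gave 2 libraries. The study pooled these 10 libraries before it called peaks, so each value below belongs to the pool, and neither the knockdowns nor the replicate libraries can be compared. The tests are across genes of 1 pooled sample, which are not independent replicates, and intervals are 95% Wilson intervals for shares that cover counting error only. The identity of the cells was read from marker genes: all 11 neuroblastoma markers on the list had a terminal peak. Among all annotated protein-coding genes, 13740 of 19970 had a terminal peak. Of the 11 markers, 2 (18.2%), GATA3 and CHGB, had 3 or more, against 31.0% of all genes with a terminal peak. None of the 19 fibroblast, leukocyte, epithelial and endothelial markers reached 3 peaks. Of these 19, a terminal peak was seen for 3 of 5 fibroblast, 1 of 5 leukocyte, 1 of 5 epithelial and 1 of 4 endothelial markers.

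Reads of this assay start at the cleavage site, so the 3′ edge of the peak on the strand of its gene was taken as the position of the site. The sequences shown first come from UBE2D3, which encodes a ubiquitin-conjugating enzyme and whose 4 sites lay in 1 terminal exon. They are shown because each carried its own core hexamer, AATAAA or ATTAAA, within 50 bp upstream of the edge. Each line gives 30 bases of GRCh38 on the gene strand, 5′ to 3′, with the core hexamer in capitals.
UBE2D3 site 1 (chr4:102796584-102796613, minus strand): cttcAATAAAgttgcataaaccaatgagtt
UBE2D3 site 2 (chr4:102795972-102796001, minus strand): aatgAATAAAagtcaatgctattggattgt
UBE2D3 site 3 (chr4:102795699-102795728, minus strand): tagaAATAAAtgttaaaacttactttttat
UBE2D3 site 4 (chr4:102794380-102794409, minus strand): taccATTAAAgtctgtgtttaaagacactt
The hexamers of the 4 sites started 25, 39, 34 and 19 bp upstream of the edge, in order along the gene.

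MSI2, a Musashi-family RNA-binding protein and regulator of translation, was 1 of the 2 genes with the most sites (16). Some of its sites are shown because they cover the kinds of sequence found at the edge. Where a core hexamer was present it is in capitals. Otherwise the capitals mark the 10 bases after the edge, and a site was called A-rich downstream when at least 7 of these 10 were A. Such runs matter for reading this assay because its libraries are primed with oligo(dT), which can also anneal to A-rich stretches inside an RNA.
MSI2 site 1 (chr17:57268516-57268545, plus strand): acaagcatattttactaataATTAAAAAAA
MSI2 site 4 (chr17:57364994-57365023, plus strand): aaaaAATAAAaaccacactgaacaaaaacc
MSI2 site 5 (chr17:57401386-57401415, plus strand): caagaacaaagaaaatatttGTAGGCGGGT
MSI2 site 8 (chr17:57616617-57616646, plus strand): ttactctttatttgccaaaaAAAAAAAAAA
MSI2 site 10 (chr17:57632879-57632908, plus strand): tctcATTAAAgatgcttgatgtaataattg
MSI2 site 16 (chr17:57684666-57684695, plus strand): ataaAATAAActgttttgaacagagttgtt
Sites 1 and 8 were A-rich without a core hexamer, site 5 had neither, and sites 4, 10 and 16 had the hexamer with fewer than 7 A downstream. Site 16, the last and in a 3′ UTR, was the strongest of the gene, with a summit pileup of 69 reads against 12 to 28 at the other 15.

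RAD50, a subunit of the double-strand break repair complex MRE11-RAD50-NBS1, is shown because none of its 9 sites had a core hexamer. The gene had 10 terminal peaks, and what lay in a shared window is not described here. The first pair below lay in coding sequence and the second pair in the 3′ UTR, with the 10 bases after the edge in capitals.
RAD50 site 5 (chr5:132608668-132608697, plus strand): agaaaaagaagaattaatcaACAAAAAAAA
RAD50 site 6 (chr5:132609364-132609393, plus strand): agactcatgagacaagatatTGATACACAG
RAD50 site 8 (chr5:132642458-132642487, plus strand): atatattctttcaaaggaacATTGTGTCTA
RAD50 site 9 (chr5:132642863-132642892, plus strand): atccagtgacctctctctctGGGACTTGGT
Site 5 had 9 A among these bases, whereas sites 6, 8 and 9 had 4, 2 and 1. The hexamer AATATA stood upstream of site 8 and TATAAA upstream of site 9, both among the 10 rarer variants on the study's list of 12 poly(A) signals.

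The number of terminal peaks per gene fell steeply. There were 5782 genes with 1 terminal peak and 3702 with 2 on one side of the limit, and 2077 with 3 and 1096 with 4 on the other. Another 531 genes had 5, 270 had 6, 129 had 7, 69 had 8 and 41 had 9, up to 16 in MSI2 and KMT2C. The annotation moved with this count: genes with 3 or more had a median of 11 annotated transcript ends, 5.62 kb of window, a gene length of 61.3 kb and a longest 3′ UTR of 2204 bp, against 4 ends, 2.21 kb, 20.6 kb and 959 bp for genes with 1. Peaks per kb of window were 0.686 and 0.453 at the median. The genes were chosen on the number of peaks, so this difference in density is partly built in. What part of the count the number of annotated ends accounts for was not tested.

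**Figure D1:**
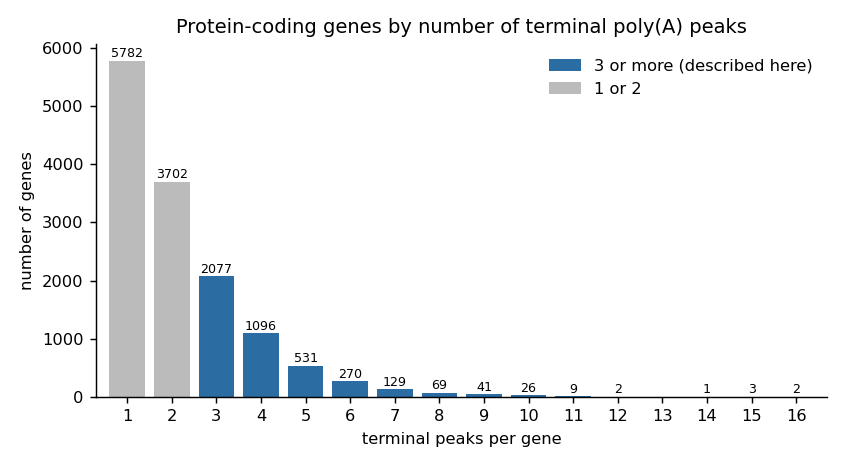
Number of protein-coding genes (vertical axis) by number of terminal peaks (horizontal axis), with genes of 3 or more in blue and genes of 1 or 2 in grey. The bars fall from 5782 genes with 1 peak to 2077 with 3 and 2 with 16.

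The sites lay in the 3′ UTR less often than the peaks of single-peak genes. By the place of their summits, 56.0% of the 15930 sites were in a 3′ UTR, 17.7% in an intron, 12.4% in other exons, 11.5% in coding sequence and 2.45% past the gene end. Of the 4756 single-peak genes whose peak lay in the windows of 1 gene, 89.9% had it in the 3′ UTR, 2.31% in coding sequence and 2.17% in an intron. The order along the gene divided the sites further. In the 3755 genes with 3 or more sites, the most proximal site was in the 3′ UTR in 28.5%, in an intron in 29.1% and in coding sequence in 19.7%, while the most distal site was in the 3′ UTR in 84.4%, in an intron in 2.21% and in coding sequence in 0.772%. This order is partly built in, since 3′ UTRs end genes. The most distal edge was within 25 bp of an annotated transcript end in 71.7% and the most proximal in 40.7%, against 79.7% in single-peak genes.

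**Figure D2:**
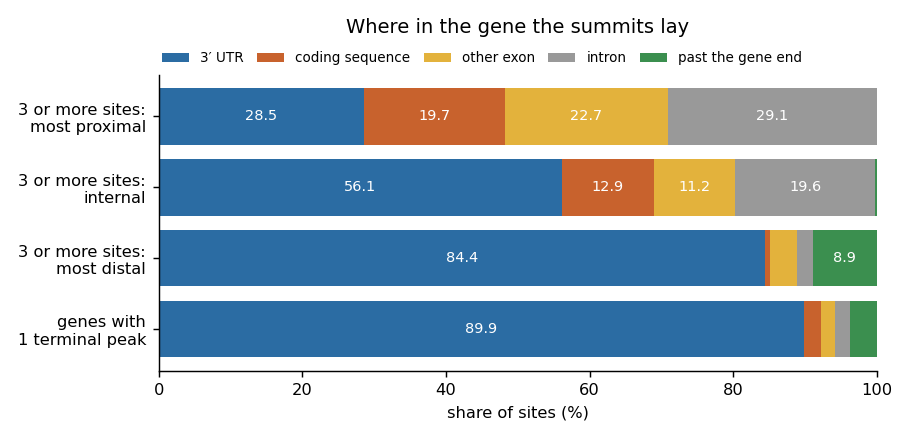
Share of sites (%) whose summit lay in a 3′ UTR, coding sequence, another exon, an intron or past the gene end, for the most proximal, internal and most distal sites of the 3755 genes and for single-peak genes. The 3′ UTR share runs from 28.5% at the most proximal to 84.4% at the most distal sites and is 89.9% in single-peak genes.

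The core poly(A) signal was less frequent at the sites than at the peaks of single-peak genes and was concentrated at the last site of a gene. AATAAA or ATTAAA stood within 50 bp upstream of 7237 sites (45.4%, 44.7% to 46.2%), against 53.0% of all 26986 terminal peaks and 74.4% (73.2% to 75.7%) in single-peak genes. The share was 49.8% in genes with 3 terminal peaks, 45.9% with 4, 44.7% with 5 and 38.9% with 6 or more, and 56.1% on the other side of the limit, in genes with 2. Averaged per gene, it was 46.0% in 4220 genes with 3 or more and 74.4% in 4756 with 1, a difference of −28.4 points (95% interval of the difference of the means −29.9 to −26.9). With peaks in 3′ UTRs only it was −17.9 points (−19.6 to −16.2).

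Within genes, the most distal site had a core hexamer in 72.7% (71.2% to 74.1%) and the most proximal in 31.5% (30.1% to 33.0%) of the 3755 genes. The hexamer was present only at the distal of these 2 sites in 1877 genes and only at the proximal in 332 (exact two-sided sign test, p = 6.37e-261, Benjamini-Hochberg adjusted over 9 such tests 5.73e-260). The share stood highest at the last 2 positions. In the 458 genes with 5 sites, the share was 32.5%, 33.4% and 36.2% at sites 1 to 3, 49.1% at site 4 and 74.7% at site 5. In the 1822 genes with 3 sites, it was 32.9%, 44.2% and 72.4%. The difference between distal and proximal was 41.1 points and 30.5 points when A-rich peaks were left out. It was 29.05 points when only peaks in 3′ UTRs were counted (1477 genes) and 19.6 points when only the ends of complete coding transcripts defined the windows.

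**Figure D3:**
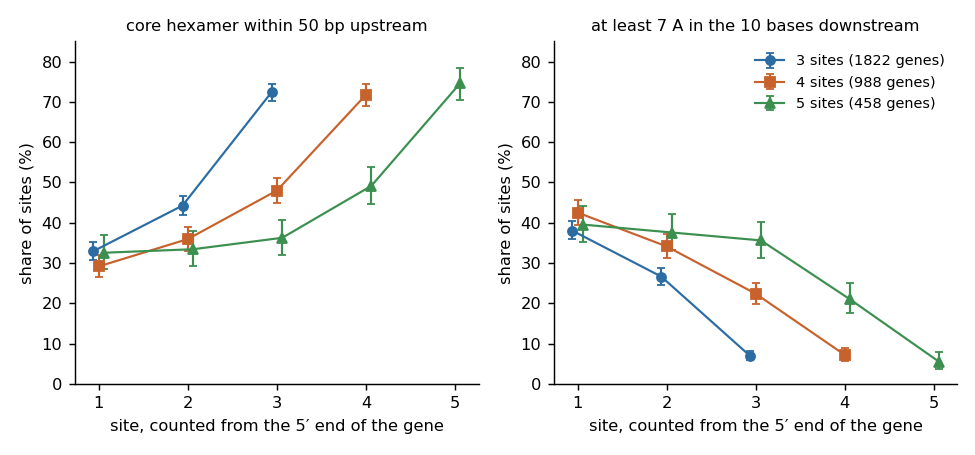
Share of sites (%) with a core hexamer within 50 bp upstream (left) and with 7 or more A among the 10 bases downstream (right) by position of the site from the 5′ end of the gene, for genes with 3, 4 or 5 sites, with 95% Wilson intervals. The hexamer share ends at 72.4%, 71.8% and 74.7% at the last site, and the A-rich share falls to 6.86%, 7.19% and 5.46% there.

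Where the core hexamer was present, it stood at nearly the same distance from the edge in all positions. Its start was 24 bp upstream of the edge at the median of the most proximal sites, 25 bp at internal and most distal sites and 25 bp in single-peak genes. The most populated 3 bp bin was 21 to 23 bp upstream, with 16.8 per 100 most distal sites, 6.71 per 100 most proximal sites and 17.2 per 100 single-peak genes. AATAAA accounted for most of the difference in frequency: it was found at 58.6% of the most distal and 23.7% of the most proximal sites, and ATTAAA without AATAAA at 14.1% and 7.80%. The 10 rarer hexamers, counted where neither core form was present, went the other way, with 12.7% and 21.6%. AAGAAA, an A-rich word, was the most frequent of them at the most proximal sites (5.01%, against 1.07% at the most distal). None of the 12 hexamers was found at 14.6% of the most distal, 46.8% of the most proximal and 14.6% of single-peak sites.

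**Figure D4:**
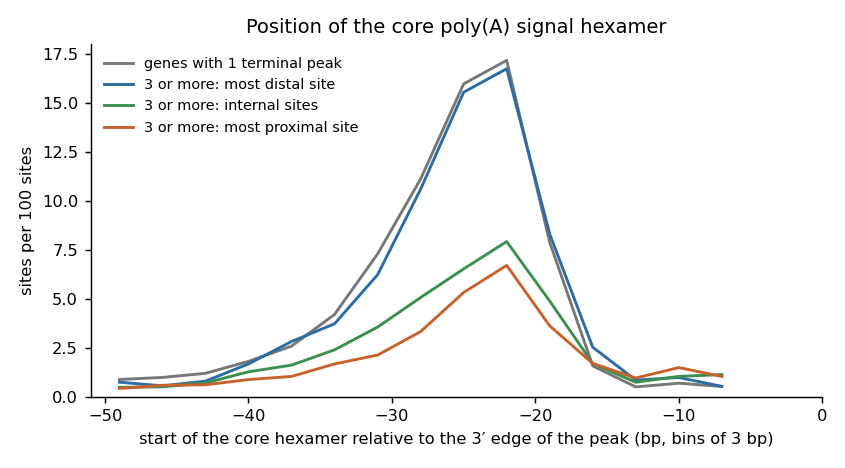
Sites per 100 sites (vertical axis) whose nearest core hexamer starts at a given distance upstream of the 3′ edge of the peak (horizontal axis, bp, bins of 3 bp), for single-peak genes and for the most distal, internal and most proximal sites of genes with 3 or more. All 4 curves peak 21 to 23 bp upstream, at 17.2, 16.8, 7.92 and 6.71 per 100.

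The other sequence measures followed the same order. TGTA, the core of the element bound by the cleavage factor I subunit NUDT21, occurred 35 to 100 bp upstream of 36.9% of the sites, near the 38.1% of all terminal peaks, and of 41.8% in single-peak genes. It was present at 49.2% of the most distal and 30.2% of the most proximal sites (1311 genes against 595, exact sign test, adjusted p = 1.11e-61). Downstream runs of A were found at 28.4% of the sites, against 21.8% of all terminal peaks and 5.63% in single-peak genes, and their share grew from 24.01% in genes with 3 terminal peaks to 36.9% in genes with 6 or more. They were present at 6.87% of the most distal and 40.2% of the most proximal sites (163 genes against 1415, exact sign test, adjusted p = 1.61e-248). The difference of −33.3 points was −14.1 with the ends of complete coding transcripts only (7.43% against 21.5%) and −14.6 with peaks in 3′ UTRs only (3.66% against 18.2%), and the TGTA difference of 19.1 points was 9.21 and 10.8 in these settings. T and G made up 56.2% ± 11.8 (SD, n = 3755) of the 40 bases after the most distal edge and 46.0% ± 13.7 after the most proximal one, and 57.0% ± 11.5 in single-peak genes. The difference of 10.2 points between distal and proximal was 4.45, 5.16 and 4.47 with complete coding transcript ends, with 3′ UTR peaks and without A-rich peaks. The last 2 measures are read from overlapping bases, so a run of A lowers the T and G share by construction. The site type also depended on its place: a core hexamer was found at 62.9% of sites in 3′ UTRs, 32.4% in other exons, 20.5% in introns and 15.2% in coding sequence, and A-rich sequence downstream at 12.5%, 50.4%, 56.8% and 39.1%.

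Peak height was read as the pileup of reads at the summit, recovered from the deposited fold and p-value, and it counts distinct read positions that level off at strong sites. The sites had a median pileup of 15 reads (10th percentile 7, 90th percentile 33, highest 87), close to the 17 reads of single-peak genes. A −log10 q of at least 20 was reached by 19.9% of sites, against 24.6% of all terminal peaks and 36.3% in single-peak genes. Within a gene, the strongest site had 2.80 times the pileup of the weakest at the median (from 1.56 to 5.40 between the 10th and 90th percentiles), and in 1003 genes (26.7%) the ratio was 2 or less. In the genes with 3 sites, the strongest held 47.4% of the summed pileup at the median, and in genes with 6 or more 26.2%.

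The stronger site of a gene more often had the core signal. In the 3202 genes with a single strongest and a single weakest site, the core hexamer was at 63.8% of the strongest and 32.3% of the weakest (1400 genes against 390, exact two-sided sign test, adjusted p = 4.43e-133). TGTA was at 46.5% and 32.1% (adjusted p = 1.80e-32) and A-rich sequence at 10.9% and 38.8% (adjusted p = 1.35e-146 in the same exact sign tests). The core difference of 31.5 points was 19.4 points without A-rich peaks, 13.4 with the ends of complete coding transcripts only, 11.2 with peaks in 3′ UTRs only and 14.4 in genes with all sites in 1 terminal exon. In the last 3 of these settings the A-rich difference of −27.9 points was −13.3, −9.91 and −8.21. Across all sites, the core share was 30.8% at pileups under 10, 49.97% from 15 to 19 and 55.6% at 30 or more. In single-peak genes of the same heights it was 71.1%, 79.7% and 65.5%, so the lower share of the sites held at each height. Among pileups of 30 or more the intervals were 53.5% to 57.7% for sites and 62.2% to 68.7% for single-peak genes. When only peaks with −log10 q of at least 20 were counted, 94 genes remained for this comparison, the core difference was 7.45 points (exact sign test, p = 0.401), and TGTA was 8.51 points lower at the strongest site (p = 0.291).

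The strongest site was the most distal one in 1581 of 3592 genes (44.01%, 42.4% to 45.6%), the most proximal in 486 (13.5%) and an internal one in 1525 (42.5%). Last was more frequent than first (exact two-sided sign test, adjusted p = 2.48e-134). The difference of 30.5 points was 13.5 points with the ends of complete coding transcripts only (509 genes against 329) and 14.96 with peaks in 3′ UTRs only (570 against 359). This preference was not seen where all sites shared 1 terminal exon: there the strongest site was the last in 175 and the first in 179 of 541 genes, a difference of −0.74 points (exact sign test, p = 0.873). When the strongest site was the last, it had a core hexamer in 77.2% and lay in a 3′ UTR in 95.2%. When it was the first, these shares were 48.1% and 59.9%. Over all 3592 genes, the strongest site was in the 3′ UTR in 85.6% and in coding sequence in 6.46%.

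How many genes spread their sites over several terminal exons depended on the transcript ends and places that were counted. Counting overlapping terminal exons of a gene as 1, 3187 of 3755 genes (84.9%, 83.7% to 86.0%) had sites in more than 1, with 2 in 1290 genes, 3 in 1145 and 14 in MYT1L. The share was 53.5% of 1400 genes when only the ends of complete coding transcripts defined the windows and 41.5% of 1477 genes when only peaks in 3′ UTRs were counted. The sites of a gene spanned 24.9 kb at the median, under 5 kb in 16.70% of genes and over 100 kb in 14.5%. Neighbouring sites were 4248 bp apart at the median, with 28.7% of gaps under 1 kb and 34.5% over 10 kb. The 568 genes with all sites in 1 terminal exon spanned 2.27 kb at the median. In them the core hexamer was at 77.5% of the most distal and 40.3% of the most proximal sites (274 genes against 63, exact sign test, p = 1.66e-32). The median pileup was 19 reads at both, and 44.2% of the most proximal sites had neither the hexamer nor A-rich sequence downstream, against 18.8% of the most distal.

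There were 7 genes with 12 or more sites and 10 with 11, of which the 3 with the highest summed pileup were named. The sites of the 10 genes named in this way spanned 22.9 to 514 kb. MSI2 and KMT2C, a histone methyltransferase, had 16 sites each, and ANK2 (ankyrin-B, an adaptor between membrane proteins and the spectrin skeleton), VPS53 (a vesicle tethering subunit) and MYT1L (a neuronal zinc finger factor) had 15. ATRX, a chromatin remodeller, had 14, ARID1B, a subunit of the SWI/SNF remodelling complex, had 12, and CHD2, another remodeller, CCDC88A, an actin-binding protein, and SMC4, a condensin subunit, had 11. In ANK2, 10 of the 15 sites were A-rich downstream and 3 had a core hexamer, and its strongest site (35 reads) was the next to last, in the 3′ UTR. In MYT1L, 9 of 15 had a core hexamer, and the last was the strongest, with 32 reads against 6 to 16 at the others. KMT2C had its highest pileup (30 reads) at site 8, in coding sequence, with AATAAA 18 bp upstream and 8 A downstream. SMC4 had 7 of 11 sites in coding sequence, among them its strongest (57 reads, site 3), which had neither a core hexamer nor 7 A downstream, and its 2 sites in the 3′ UTR had 47 and 42 reads.

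By summed pileup over the sites, the first 5 genes were SMC4 (351 reads), MSI2 (350), HNRNPA1 (326), HMGB1 (292) and CCDC88A (282). HMGB1, a non-histone chromatin protein known for several 3′ UTR lengths, had 5 sites of nearly equal height: 59 reads in coding sequence, then 54, 67, 57 and 55 along the 3′ UTR. Sites 3 and 5 had a core hexamer. HNRNPA1, a splicing regulator, had 8 sites of 25 to 59 reads over 4.89 kb, and the highest, site 5, had AATAAA 36 bp upstream. HMGB1, HNRNPA1 and ribosomal protein genes have processed pseudogenes, and the authors' mapping admitted reads with several positions, so heights in these genes are uncertain. Among genes with all sites in 1 terminal exon, CANX, an endoplasmic reticulum chaperone, had 5 sites of 27, 39, 35, 42 and 28 reads over 2.37 kb, 4 of them with a core hexamer. SLC38A1, a glutamine transporter, had its strongest site last (57 reads, against 22 to 29), and MIEF1, a mitochondrial fission regulator, had it first (48 reads, against 17 to 28).

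**Figure D5:**
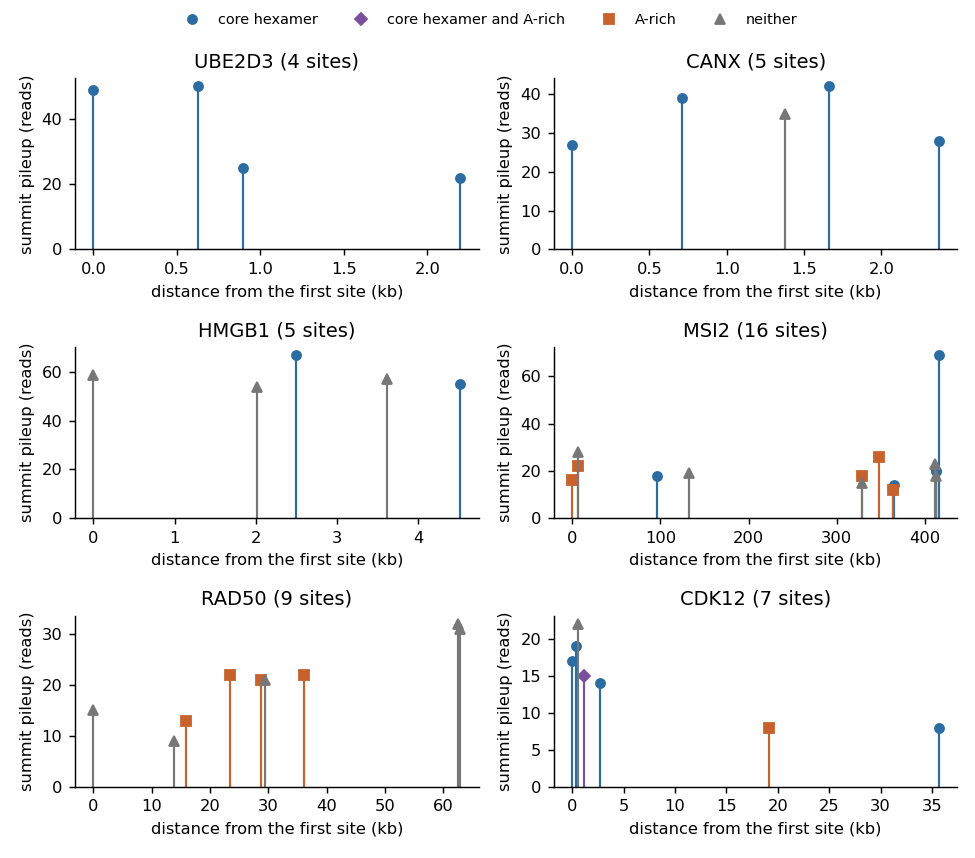
Summit pileup (reads, vertical axis) of each site against its distance from the first site (kb, horizontal axis) in UBE2D3, CANX, HMGB1, MSI2, RAD50 and CDK12, with symbols for a core hexamer, A-rich sequence downstream, both or neither. Sites of HMGB1 range from 54 to 67 reads, whereas the last of the 16 sites of MSI2 stands at 69 reads above all others.

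Both knocked-down genes were among the genes with 3 or more. CDK12 had 7 sites. Some of them are shown here with some of those of CDK13, because both genes are targets of the hairpins. The core hexamer is in capitals or, where there was none, the 10 bases after the edge.
CDK12 site 1 (chr17:39531848-39531877, plus strand): tttgAATAAAtgtttctttcctctccacca
CDK12 site 2 (chr17:39532243-39532272, plus strand): ttgaAATAAAggaaaggaaattcagactct
CDK12 site 3 (chr17:39532464-39532493, plus strand): aaaaaaaacaaaaacctttcAAACAGAGCA
CDK12 site 6 (chr17:39550959-39550988, plus strand): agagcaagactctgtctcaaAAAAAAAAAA
CDK12 site 7 (chr17:39567535-39567564, plus strand): aatgAATAAAtgacaaaagaacatctctct
CDK13 site 2 (chr7:40049167-40049196, plus strand): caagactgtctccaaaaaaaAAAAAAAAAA
CDK13 site 3 (chr7:40095505-40095534, plus strand): agaaAATAAAacacaacctttctcttgatg
The first 5 sites of CDK12 lay in 1 terminal exon within 2665 bp and had 17, 19, 22, 15 and 14 reads, 4 of them with a core hexamer. Site 4 (15 reads) had the hexamer and was also A-rich downstream, with 8 A after the edge. Site 6, with 10 A after the edge, and site 7, at the end of a downstream terminal exon, had 8 reads each. CDK13 had 3 sites, of which the first 2 (10 and 14 reads) were A-rich downstream and the last (34 reads) had AATAAA 45 bp upstream, in the 3′ UTR. The pool holds cells with and without each knockdown, so these heights say nothing about its depth.

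Gene groups differed in how many of their members had 3 or more terminal peaks, to be read against the 31.0% of all genes with a terminal peak. Peak height, gene length and the number of annotated ends were not held equal between groups, and their part was not tested. Of 25 genes known for alternative polyadenylation, 16 (64.0%) had 3 or more, with APP, the amyloid precursor (8 sites, the last at 51 reads), NAP1L1, a nucleosome assembly protein (6), PAK1, a signalling kinase (6), and MAPT, the tau gene (6). Of 31 splicing regulators and hnRNP genes, 18 (58.1%) did, led by HNRNPA1, HNRNPD, HNRNPH1 and HNRNPU, and 59.2% of their 71 sites had a core hexamer. Of 27 ubiquitin-conjugating enzymes, 13 (48.1%) did, among them UBE2D3, UBE2D2 and UBE2N with 4 sites each. Ribosomal protein genes reached 30 of 77 (39.0%), with 35.4% of 99 sites carrying a core hexamer.

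Neuronal genes had 3 or more in 7 of 21 (33.3%): SYT1, a synaptic vesicle calcium sensor, with 7 sites, ELAVL4, a neuronal RNA-binding protein, with 5, KIF5C, a kinesin, with 5, and MAP1B, a microtubule-associated protein, with 4. ELAVL4 had sites in 2 terminal exons, of 12 and 24 reads in the first and 52, 27 and 40 in the second. Cleavage and polyadenylation factors had 3 or more in 7 of 23 (30.4%), among them PAPOLA, the canonical poly(A) polymerase, with 10 sites in 8 terminal exons and its strongest last (35 reads, AATAAA 27 bp upstream), RBBP6 with 7, FIP1L1 with 4 and PPP1CB with 4. Zinc finger genes named ZNF had 122 of 418 (29.2%), led by ZNF131 and ZNF827 with 8 sites each, ZNF331 with 7 and ZNF207 with 6. Complex I genes named NDUF had 11 of 47 (23.4%), including NDUFA5 with 6 and NDUFA10 with 4. Of 10 transcription factors of the adrenergic cell state, 1 had 3 or more: GATA3, with 60, 50 and 30 reads at 3 sites within 672 bp, each with a core hexamer. The site of 60 reads was also A-rich downstream, with 9 A after the edge.

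Of the DNA damage response (DDR) genes listed by the study, 146 of 162 names matched, 143 had a terminal peak and 68 (47.6%) had 3 or more. Of the genes it listed for premature cleavage and polyadenylation (PCPA) with the CDK12/13 inhibitor THZ531, 771 of 809 names matched, 746 had a terminal peak and 366 (49.1%) had 3 or more. Both shares stand above 31.0%, while the genes with 3 or more were also longer, and the part of gene length in these counts was not tested. The 281 sites of DDR genes had a core hexamer in 39.5% and the 1522 sites of PCPA genes in 45.9%, beside 45.4% of all sites. RAD50, APTX, an end-processing enzyme, and ATM, the checkpoint kinase, had 9 sites each, and PMS1, a mismatch repair protein, had 7. In ATM, pileups were low throughout (4 to 18 reads) and the highest was the first site, which had 10 A after the edge. The last, with AATAAA 21 bp upstream, had 11 reads. PMS1 had its strongest site last (43 reads), with a core hexamer. ARID1B, SMC4, CHD2 and BCL11A, a zinc finger repressor with 11 sites, led the PCPA genes. The last 3 of the 12 sites of ARID1B lay in the 3′ UTR with 36, 31 and 23 reads, each with a core hexamer, against 5 to 18 at the others.

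The list has no strand, so a site could belong to a gene on the other strand. Of the 15930 sites, 607 (3.81%) had a summit in an exon of such a gene, and introns of such genes were not counted. A core hexamer was found at 43.0% of the 607, against 45.5% of the rest. A-rich sequence downstream was found at 16.1%, against 28.9%, and neither feature at 43.2%, against 29.2%. Without peaks in exons of the other strand, the most distal and most proximal sites had the hexamer in 73.0% and 31.5% of 3550 genes.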

How the data were processed

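Poly(A) 3′-seq libraries (QuantSeq REV) from 10 samples were trimmed by the authors with bbduk, mapped to GRCh38 with STAR 2.5.1b, downsampled to the smallest library, merged and passed to MACS2 2.1.1 with reads extended to 100 bp. The study also describes removing peaks that lacked a poly(A) signal motif upstream and had a long genomic run of A downstream. Whether the list used here came before or after that step was not established. The study made the libraries in different batches, which the pooled list cannot separate. For each peak of the deposited list, the fold is the ratio of pileup to local background, and the −log10 p-value and −log10 q-value are from a test of that pileup by the authors. No depth per library is known.

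Members and gene lists were chosen with earlier results of these data known. Coordinates of the list fit the GRCh38 chromosome lengths. Summits were annotated with GENCODE 44. Pileup was recovered from the deposited fold and p-value (largest miss in −log10 p 0.000146). Sites were described by core hexamers (50 bp upstream of the edge), TGTA (100 to 35 bp upstream), at least 7 A in 10 bases and T and G in 40 bases downstream. Letters were searched on the gene strand only, since site order and edge follow it. Within genes, exact two-sided sign tests over genes that differ were used, with Benjamini-Hochberg adjustment over 9 tests. Genes with 3 or more and with 1 peak were planned to be compared by permutation over genes. A 95% interval of the difference of means is given instead, with no p-value. Named genes were set by rule: the 10 with the most sites, the 5 with the highest summed pileup, the 5 with the most sites in 1 terminal exon, CDK12 and CDK13, and up to 4 with the most sites in each list, some of which are not reported here. Alternatives changed the q-value limit, window, transcripts, hexamers, position and merging. Pileup recovery, the hexamer search and the sign test were tested on simulated data. Python 3.11.15, numpy 2.4.6, scipy 1.17.1, pandas 2.3.3, pysam 0.24.0 and matplotlib 3.10.9 were used.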

Additional observations from a re-analysis of the deposited data

How the results depend on the processing

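Of 132 alternatives to results with a test or interval, 119 kept the direction and the side of the threshold, 7 kept the direction only and 6 reversed it. The count and composition of the sites depended more on the settings: there were 15930 sites in 4256 genes, but 387 in 129 at −log10 q of at least 20, 7734 in 2177 with windows of 100 bp on each side, 5120 in 1640 with ends of complete coding transcripts only, 8980 in 2729 without A-rich peaks and, chosen after seeing the data, 5279 in 1674 with peaks in 3′ UTRs only. In these 5 settings the core hexamer share was 44.4%, 50.2%, 57.5%, 55.8% and 59.8%, and the share of genes with sites in more than 1 terminal exon 80.7%, 87.1%, 53.5%, 77.8% and 41.5%. At −log10 q of at least 5 these were 46.9% and 83.1%. The core share was 51.2% with the hexamer within 100 bp, 65.1% with all 12 hexamers and 55.5% in genes with all sites in 1 terminal exon (also chosen after seeing the data).

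At −log10 q of at least 20, strongest minus weakest was 7.45 points for the core hexamer (p = 0.401), −5.32 for A-rich sequence (p = 0.4996), 1.97 for T and G (p = 0.461) and −8.51 for TGTA (p = 0.291, all exact sign tests over 94 genes), and TGTA in genes with 3 or more minus 1 was −4.79 points. With 3′ UTR peaks only, this last difference was −1.41 points, and in genes with 1 terminal exon it was −1.94, while TGTA in the strongest minus the weakest site was 5.95 points (exact sign test, p = 0.0617) and the strongest site last minus first −0.74 points. With the summit in place of the edge, which moves the windows upstream of the hexamer, the core share was 9.77%, the core difference between genes with 3 or more and with 1 was 0.079 points and that of TGTA 4.12, and A-rich sequence differed by 0.88 points between distal and proximal and by 1.91 between strongest and weakest. The cause of these changes was not tested. At −log10 q of at least 20, the core hexamer difference between distal and proximal was 47.7 points over 109 genes (exact sign test, p = 3.07e-12). No paired analysis was possible because the peak list analysed here holds 1 pooled value per peak, so no replicate was left out either. Coverage tracks were not analysed here. Pileups that level off limit the ranking of strong sites.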

Other observations

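Sites in coding sequence often had neither of the main sequence features. Of 1824 such sites, 892 (48.9%, 46.6% to 51.2%) had fewer than 7 A downstream and no core hexamer, and 600 (32.9%) had none of the 12 hexamers either. In 3′ UTRs these shares were 27.0% and 12.6% of 8913 sites. Sites past the gene end were similar to those in coding sequence, with the first share at 45.8% (40.9% to 50.7%) of 391. It was 29.7% over all sites and 28.1% over all 26986 terminal peaks in the windows of 1 gene. The 892 sites came from 748 genes and had a median pileup of 13 reads, against 20 for the 2408 such sites in 3′ UTRs.

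The 10 genes with the highest pileup at a strongest site that was also the first were picked after their values were seen. They were RPL37A (86 reads at the first and 16 at the last site), RPL31 (65 and 25), RPL15 (64 and 20), RPL27A (55 and 5), RPS14 (57 and 24), GRSF1 (70 and 21), ANKRD17 (70 and 23), TXNDC15 (64 and 28), GATA3 (60 and 30) and CFL1 (55 and 7). Heights in ribosomal protein genes are uncertain because of their pseudogenes. The first site of RPL37A and of ANKRD17 lay in coding sequence, and those of the others in a 3′ UTR.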
